A study of Mus musculus with 16 samples.

Results

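R-loops of the first assembled megabase next to each mouse centromere were described here from peak lists of DNA:RNA immunoprecipitation sequencing (DRIP-seq), in which the S9.6 antibody pulls down DNA that is paired with RNA. A peak was a member when its summit lay between positions 3000000 and 4000000 of chromosome 1 to 19 in the GRCm38 assembly. Over the 8 immunoprecipitation lists, 915 of 77297 peaks were members. After overlapping peaks were merged over the 8 lists, they formed 484 of the 50441 regions of all chromosomes and of the 49029 regions of chromosome 1 to 19. The cells were NIH/3T3 mouse embryonic fibroblasts, either wild type (WT) or carrying a CRISPR-Cas9 knockout (KO) of Xpo4, the gene of a nuclear export receptor, and the KO was a single cell line. The nucleic acids were left without RNase R (RNase R-), which keeps R-loops made with any RNA, or were treated with RNase R (RNase R+), an exonuclease that digests linear RNA and spares circular RNA. Each of these 4 groups had 2 replicates, and since nothing says that they came from separate cultures, the p-values measure only the spread between these lists. DNA of every group was cut with the 4 restriction enzymes MseI, DdeI, AluI and MboI before the immunoprecipitation.

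Mouse chromosomes carry their centromere at one end. The centromere proper lies in minor satellite DNA, and beside it lies pericentromeric heterochromatin built from long tandem arrays of major satellite. Most of this satellite DNA is not assembled and stands as a gap before position 3000000, so the window begins where ordinary sequence, segmental duplications and remnants of satellite come into view. An R-loop forms where an RNA pairs with 1 strand of the DNA duplex and displaces the other, and satellite transcripts are among the RNAs known to pair with pericentromeric DNA. The 19 windows held 18.5 Mb of assembled bases, against 2377 Mb in the rest of the same chromosomes. The first 100 kb of the window held 0 assembled kb on chromosomes 10 and 11. They held 50 kb on chromosomes 2, 4, 6 and 15. Distances below are counted from position 3000000 on every chromosome. Repeat-masked bases made up 42.2% of the windows and 33.4% of the rest, while GC content was 42.2% and 41.9%. Of 31-base words placed on a 5 kb grid, 67.5% occurred once in the genome inside the windows and 84.3% in the rest. The window of chromosome 14 was the most repeated, with 2.49% unique words.

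The sequences around the summits of 5 of the leading regions are shown because they differ in kind. Each is 151 bases of GRCm38, plus strand, centered on the highest-fold summit of its region, with the restriction sites in capitals. MseI cuts at TTAA, DdeI recognizes CTNAG, AluI cuts at AGCT and the site of MboI is GATC.
chr19:3510250-3510400, in an intron of Ppp6r3: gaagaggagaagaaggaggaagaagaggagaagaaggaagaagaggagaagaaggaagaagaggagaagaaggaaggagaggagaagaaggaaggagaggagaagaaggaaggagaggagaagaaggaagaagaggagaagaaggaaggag
chr6:3201397-3201547, outside genes: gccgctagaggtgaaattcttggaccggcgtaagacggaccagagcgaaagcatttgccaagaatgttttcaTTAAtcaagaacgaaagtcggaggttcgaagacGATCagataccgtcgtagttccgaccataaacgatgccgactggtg
chr2:3050274-3050424, outside genes: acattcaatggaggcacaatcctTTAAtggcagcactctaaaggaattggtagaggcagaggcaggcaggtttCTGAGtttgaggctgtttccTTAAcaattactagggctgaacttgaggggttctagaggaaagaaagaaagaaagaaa
chr11:3196968-3197118, inside Drg1 and just upstream of the pseudogene Fau-ps2: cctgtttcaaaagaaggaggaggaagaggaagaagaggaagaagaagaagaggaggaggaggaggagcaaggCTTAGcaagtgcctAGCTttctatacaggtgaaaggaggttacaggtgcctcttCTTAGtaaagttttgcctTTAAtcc
chr9:3037917-3038067, in a tandem array: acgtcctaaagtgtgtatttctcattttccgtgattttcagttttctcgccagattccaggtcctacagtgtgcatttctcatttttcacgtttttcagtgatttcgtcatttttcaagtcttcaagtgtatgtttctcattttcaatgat

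The Ppp6r3 sequence was purine throughout, with a run of A and G over all 151 bases and no restriction site. The Drg1 sequence held a purine run of 59 bases. The chromosome 6 region was a copy of the 18S ribosomal RNA gene: 893 of its bases aligned at 98.2% identity to positions 328 to 1220 of Rn18s-rs5, an 18S-related entry of 1849 bases on chromosome 17 in RefSeq. The chromosome 9 sequence came from an array with a repeat unit of 234 bp, the unit length of the mouse major satellite, and had no restriction site.

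The number of members was highest in the longest lists. KO RNase R- gave 261 and 313 members, KO RNase R+ 99 and 79, WT RNase R- 86 and 60, and WT RNase R+ 9 and 8. The lists held 26219, 32031, 6372, 5996, 3885, 2171, 271 and 352 peaks in the same order. KO lists were above WT lists within each treatment without overlap, and RNase R+ lists were below RNase R- lists within each genotype. The member number was 3.96-fold higher in KO than in WT without RNase R and 9.90-fold higher with it, on the log2(number + 0.5) scale. With 2 lists against 2 an exact permutation test cannot go below p = 0.333, which was the value of both comparisons. Across both treatments the KO to WT ratio was 6.26-fold (exact permutation within treatment, two-sided p = 0.0556, the smallest possible, adjusted p = 0.0778 over 14 tests). RNase R+ lists held 0.196 times the members of RNase R- lists (p = 0.0556, exact permutation within genotype, the smallest possible, adjusted p = 0.0778). The background level that the peak caller used was 0.843 to 0.924 fragments in the KO lists and 0.425 to 0.558 in the WT lists, and its part in the peak numbers was not tested. The WT RNase R- libraries were also the shallowest by the study's read totals, and the part of depth was not tested either.

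Peaks were denser in the first megabase than in the rest of the same chromosomes in all 8 lists. The expected number was the number of peaks per assembled base outside the window, chromosome by chromosome, times the assembled bases inside it. Observed over expected was 1.32 and 1.30 in KO RNase R-, 2.06 and 1.75 in KO RNase R+, 2.85 and 3.58 in WT RNase R-, and 4.93 and 3.26 in WT RNase R+. The ratio was thus lowest in KO RNase R-, and the WT lists were above the KO lists of the same treatment without overlap. The exact Poisson intervals at 95%, which cover counting error only, ran from 1.16 to 1.48 in KO RNase R- replicate 1 and from 2.26 to 9.36 in WT RNase R+ replicate 1, where 9 peaks stood against 1.82 expected. The mean over the lists was a 2.27-fold density, 1.18 on the log2 scale (exact sign-flip test over the 8 lists, two-sided p = 0.00781, adjusted p = 0.0182, higher in 8 of 8 lists). The 8 lists are 2 replicates of each of 4 groups and share regions. They are therefore not 8 independent units, and the p-values of this and the later sign-flip tests can be too small. The KO ratio was 0.478 times the WT ratio (exact permutation within treatment, p = 0.0556, the smallest possible, adjusted p = 0.0778). The RNase R+ ratio was 1.26 times the RNase R- ratio (exact permutation within genotype, p = 0.111, adjusted p = 0.141). Without chromosome 9 the density remained above 1 in every list but fell to a mean of 0.71 on the log2 scale (exact sign-flip p = 0.00781, adjusted p = 0.0729), and the RNase R difference changed sign to -0.29. The KO to WT difference of relative density was then -0.58 on the log2 scale (exact permutation p = 0.111, adjusted p = 0.156).

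**Figure D1:**
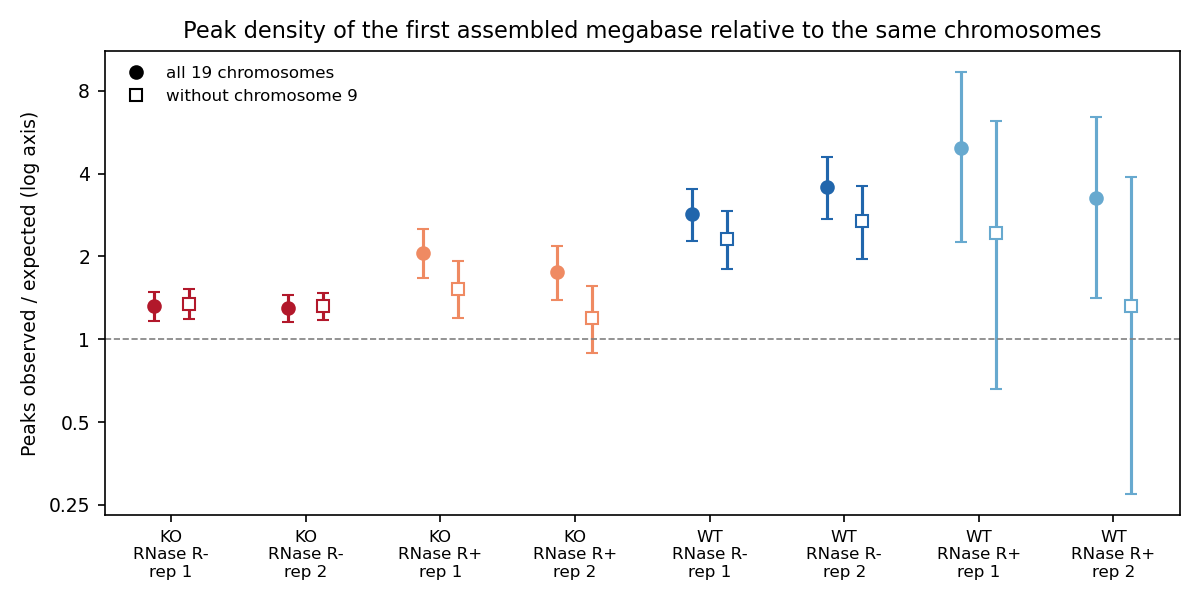
Observed over expected number of peaks in the first assembled megabase (log axis) for each of the 8 lists, with exact 95% Poisson intervals as bars. Filled circles use all 19 chromosomes and open squares leave out chromosome 9. All 8 circles lie above 1, from 1.30 to 4.93, and the squares of KO RNase R+ replicate 2 and of both WT RNase R+ lists have intervals that reach below 1.

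Within the first megabase the ratio was highest in the first 200 kb. With the chromosome 9 array left out, observed over expected in these 200 kb was 1.91 and 1.73 in KO RNase R-, 2.96 and 2.79 in KO RNase R+, and 4.58 and 5.94 in WT RNase R-. These 200 kb include a stretch of chromosome 11 described below, which was not left out. It gave 24 and 23 of the 69 and 76 peaks in KO RNase R-. In KO RNase R+ it gave 12 and 11 of 26 and 23, and in WT RNase R- 11 and 8 of 25 and 18. The next 200 kb stood at 1.71 and 1.55, 2.14 and 1.41, and 1.79 and 2.92 in the same order. Whether the first 200 kb stay highest without this stretch was not tested. The second megabase still had ratios of 1.25 and 1.21, 1.25 and 1.4, and 1.29 and 1.22 in the same lists. In KO RNase R- the megabases from 2 to 3 Mb and from 3 to 4 Mb past the assembled start had ratios of 1.32 and 1.31 in replicate 1 and 1.31 and 1.16 in replicate 2, so the first megabase did not stand apart from the next 3 there. Member density was 1.05 and 1.08 times that of the next megabase in KO RNase R- and 2.21 and 2.94 times in WT RNase R-. Over the 8 lists it was 1.56 times higher in the first megabase (exact sign-flip test chosen after seeing the data, p = 0.00781, higher in 8 of 8 lists), and 1.09 times higher without the chromosome 9 array (p = 0.555, higher in 5 of 8 lists). The last assembled megabase, at the other end of the chromosomes, had ratios of 0.967 and 0.907 in KO RNase R- and 1.02 and 1.19 in WT RNase R-. In WT RNase R+ it had ratios of 3.29 and 2.45, with 6 peaks in each list, while the first megabase without the array had 2.19 and 1.22, so in these lists the ratio was above 1 at the other end too. The member nearest to the limit lay 4049 bp inside it on chromosome 7, with a fold enrichment of 6.88, and the nearest peak outside, which is no member, lay 3780 bp beyond it on chromosome 15, with 7.60.

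**Figure D2:**
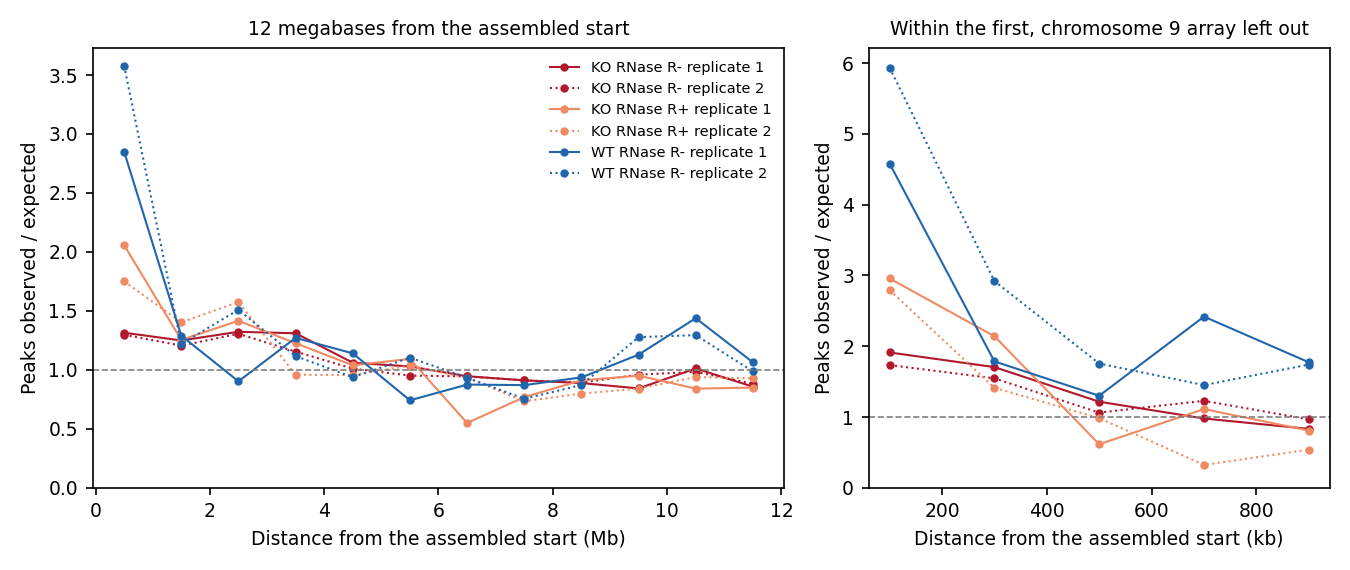
Observed over expected number of peaks in steps of 1 Mb over the 12 Mb from the assembled start (left) and in steps of 200 kb within the first megabase without the chromosome 9 array (right), for the 6 lists with 60 or more members. The WT RNase R- lines start at 2.85 and 3.58 and fall to 1.29 and 1.22 in the second megabase, while the KO RNase R- lines start at 1.32 and 1.30. These starts on the left include the array, and without its peaks WT RNase R- had 2.32 and 2.68 (not drawn).

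The excess was unevenly spread over the chromosomes. Chromosome 9 had 111 members over the 8 lists against 21.8 expected, a ratio of 5.08, followed by chromosome 11 with 141 members and 4.19 and chromosome 16 with 63 members and 2.60. The lowest ratios were 0.352 on chromosome 5, with 12 members, 0.587 on chromosome 4, with 21 members, and 0.768 on chromosome 1, with 29 members. In both KO RNase R- lists 12 of 19 chromosomes were above 1, and in both WT RNase R- lists 14 of 19. Chromosome 9 and chromosome 11 differed by list. Chromosome 9 held 4 and 8 members in KO RNase R- but 28 and 27 in KO RNase R+, 18 and 16 in WT RNase R-, and 5 and 5 in WT RNase R+. Chromosome 11 held 44 and 47 in KO RNase R-, 16 and 12 in KO RNase R+, 13 and 9 in WT RNase R-, and 0 in both WT RNase R+ lists, where 0.0916 and 0.0993 were expected. With both chromosomes left out, the mean ratio was 1.19 ± 0.00132 in KO RNase R-, 1.11 ± 0.198 in KO RNase R+, 2.08 ± 0.195 in WT RNase R- and 1.98 ± 0.834 in WT RNase R+ (SD, n = 2 lists each). KO RNase R+ replicate 2 was then no longer above 1, at 0.972 with an interval from 0.694 to 1.32.

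**Figure D3:**
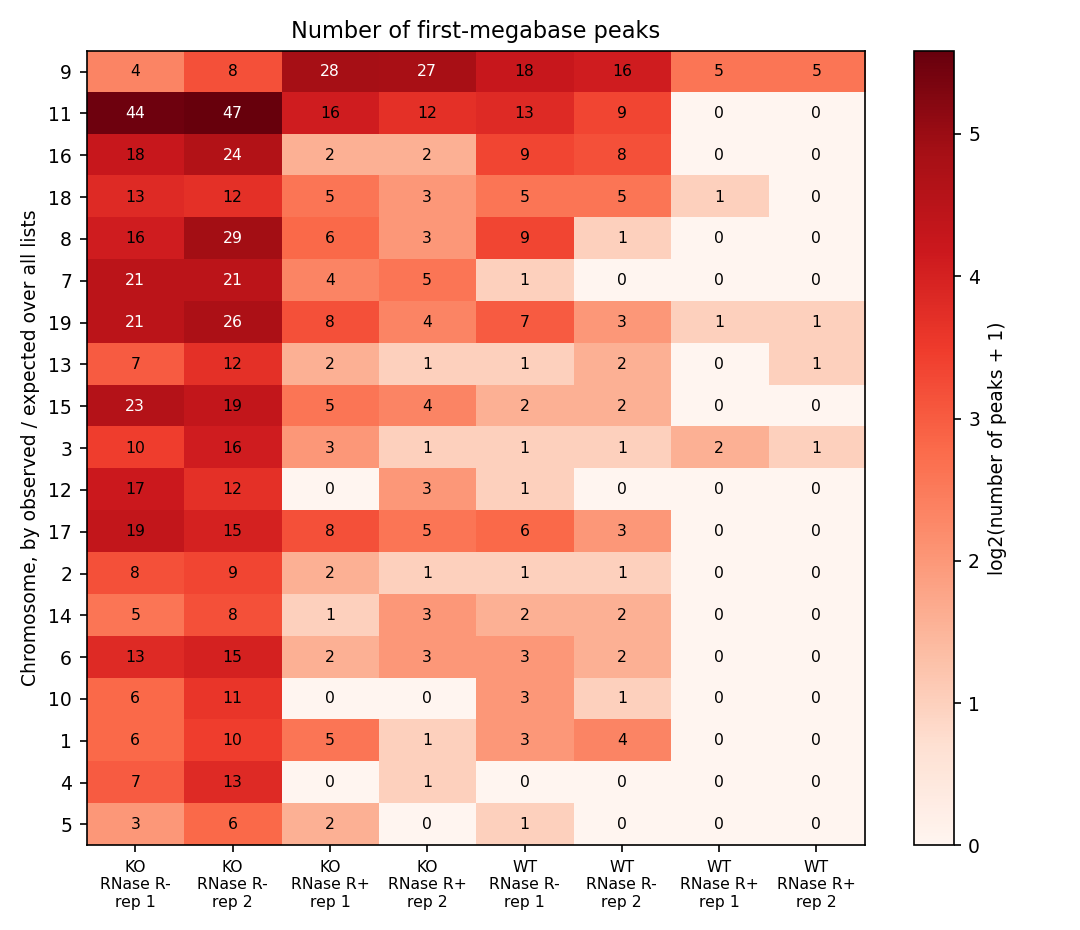
Number of first-megabase peaks per chromosome (rows, ordered by observed over expected over all lists) and list (columns), with the color giving log2(number + 1). Chromosome 9 is at 4 and 8 in KO RNase R- and at 28 and 27 in KO RNase R+, whereas chromosome 11 is highest in KO RNase R- with 44 and 47.

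The members of chromosome 9 came mostly from the tandem array at its assembled start. The array spanned chr9:2999996-3038308 as covered by member peaks, 71.3% of its bases matched the base 234 bp further on, its GC content was 34.9%, and 31-base words at its summits had a median of 65 copies in the genome. KO RNase R- replicates 1 and 2 had 0 peaks in it. KO RNase R+ had 27 and 26 peaks, WT RNase R- 16 and 15, and WT RNase R+ 5 and 5, which were broad and covered 36.4 and 36.5 kb. The median fold enrichment was 2.93 and 3.30 in KO RNase R+, 1.91 and 1.79 in WT RNase R-, and 14.9 and 13 in WT RNase R+. These peaks were 27.3% and 32.9% of the members in KO RNase R+, 18.6% and 25.0% in WT RNase R-, and 55.6% and 62.5% in WT RNase R+.

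Summit heights in fragments, recovered from the fold enrichment and the p-value of each peak, were high throughout the array. The heights count fragments, and whether they include fragments of satellite DNA that is not assembled was not tested. The 5 regions of the array were chr9:2999996-3005058, chr9:3005700-3008832, chr9:3009216-3022790, chr9:3023269-3036397 and chr9:3036713-3038308. In the last of them the summit stood at 776 and 702 fragments in WT RNase R-, 4409 and 4633 in KO RNase R+, and 11422 and 15172 in WT RNase R+. In the first of them it stood at 4762 and 4689, 16642 and 17110, and 35940 and 42227 in the same groups. In each of the 5 regions the order of the groups was the same and the lists did not overlap. The WT RNase R+ mean was 7.82-fold to 18.0-fold above the WT RNase R- mean over the 5 regions, which share 1 kind of sequence, and 2 lists against 2 cannot reach p under 0.333. Divided by each list's background level the ratio was 7.75-fold to 17.7-fold. That level is not the sequencing depth. By the study's own read totals, the WT RNase R- immunoprecipitates had the fewest uniquely mapped reads of the 4 groups, and the part of depth in this ratio was not tested. The caller's expected level at the summits was itself high, with medians of 600 to 1778 fragments, so the fold enrichments are ratios between high levels. A list holds called peaks only, and no height is known for KO RNase R-. The 4 enzymes had 1.28 sites per kb in the array, against 18.4 in the windows and 18.5 in the rest, and 66.7% of the array lay in restriction fragments of 1000 bp or more. The part of this fragment length in the array's peaks was not tested. Of the 479 other member regions, 1 held a 31-base word of the array, chr4:3089306-3089590, with 2.35% of its words.

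**Figure D4:**
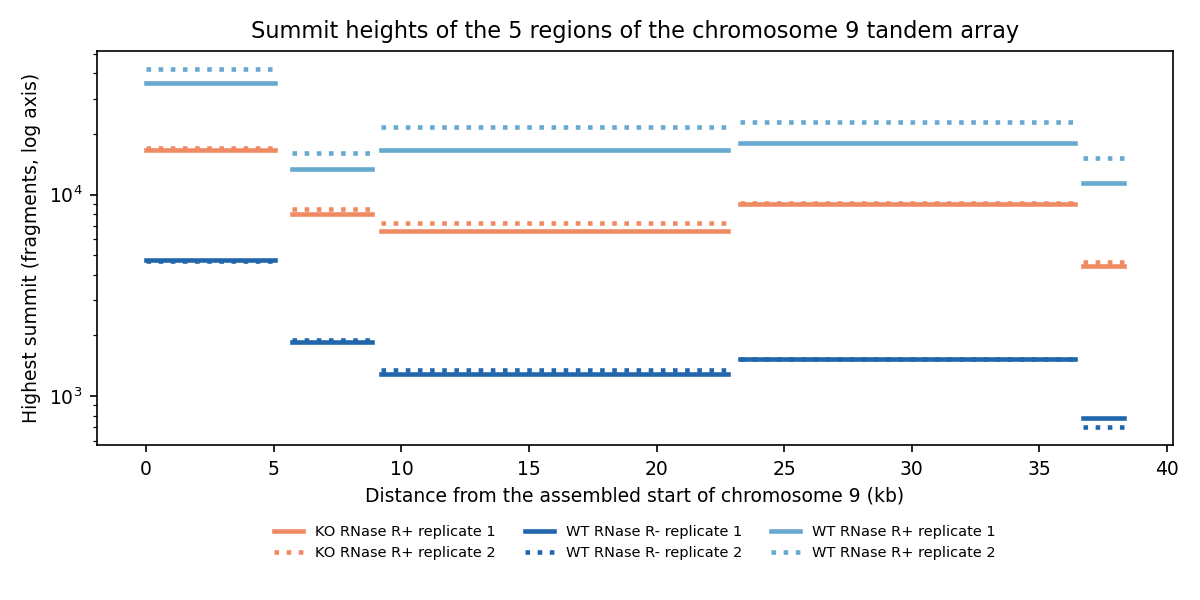
Highest summit (fragments, log axis) in each of the 5 regions of the chromosome 9 array, drawn over the width of the region against the distance from the assembled start in kb, for the 6 lists that had peaks there. In each region the WT RNase R+ lines lie above the KO RNase R+ lines and these above the WT RNase R- lines, for example at 11422 and 15172, 4409 and 4633, and 776 and 702 fragments in the region farthest from the start.

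Many chromosome 11 members lay in a stretch of 90 kb, which held 54.5% and 48.9% of them in KO RNase R- and 75% to 91.7% in KO RNase R+ and WT RNase R-. In the last 90 kb of the step from position 3100001 to 3200000, a stretch chosen after seeing the data, KO RNase R- had 24 and 23 peaks where 1.18 and 1.51 were expected, KO RNase R+ had 12 and 11 where 0.257 and 0.243 were expected, and WT RNase R- had 11 and 8 where 0.106 and 0.0596 were expected. This 100 kb step had 30 merged regions, against 11 in the next densest step, on chromosome 7, and 29 of 188 steps with assembled bases had none. The stretch contains Sfi1, which encodes a centrin-binding centrosome protein, and the 3′ part of Drg1, which encodes a GTP-binding protein. Sfi1 (chr11:3131850-3193463) held 14 member regions, 9 of them called in both replicates of a group, with 10 and 10 summits in KO RNase R-, 8 and 6 in KO RNase R+, 4 and 4 in WT RNase R- and 0 in WT RNase R+. Drg1 (chr11:3187360-3266415) overlaps the Sfi1 entry and held 12 and 8, 4 and 3, 4 and 3, and 0 summits in the same order. Reads carry no strand in these lists, so the shared stretch cannot be assigned to either gene. Sequence with more than 1 genomic copy held 62.5% and 39.1% of the peaks of the stretch in KO RNase R-, against 38.4% and 37.9% of the peaks outside the windows, so that replicate 2 was close to the rest. It held 75% and 72.7% in KO RNase R+, against 43.9% and 45.8%, and 45.5% and 37.5% in WT RNase R-, against 43.9% and 49.8%. The expected level was over 3 times the list background in all 6 lists that called chr11:3190375-3191704, chr11:3194126-3195344 and chr11:3196366-3197550. The same held in all 4 lists that called chr11:3132044-3132461 and chr11:3133136-3134003. It held in 2 of the 6 lists of chr11:3184096-3184847 and in 0 of the 5 lists of chr11:3161497-3162069.

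Across all members, presence in several lists was more common than among all regions. Of the 484 regions, 165 (34.1%) were called in both KO RNase R- lists, against a background of 28.2% of all regions of chromosome 1 to 19. In both KO RNase R+ lists 35 (7.23%) were called, against 4.48%. In both WT RNase R- lists 29 (5.99%) were called, against 1.2%, and in both WT RNase R+ lists 7 (1.45%), against 0.29%. At least 1 WT list called 100 regions (20.7%), against 11.2%. Both KO RNase R- lists and neither WT RNase R- list called 137 (28.3%), against 25.9%, while the reverse held for 10 (2.07%), against 0.379%. In KO, 34 (7.02%) were called with RNase R and in neither list without it, against 7.01%, a share at the background. At least 6 lists called 15 (3.10%), against 0.445%, and 1 list called 269 (55.6%), against 63.6%. No region was called in all 8 lists. The 5 regions of the array were among the 15 called in at least 6 lists, the 10 of the reverse pattern and the 7 of both WT RNase R+ lists. They were also among the 35 of both KO RNase R+ lists and the 29 of both WT RNase R- lists, which were 30 and 24 without them. The 34 called in KO only with RNase R and the 100 of at least 1 WT list held them too, and were 29 and 95 without them.

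The 15 leading regions, ranked by the number of lists and then by mean fold enrichment, differed widely in strength. The region in Ppp6r3 (chr19:3509710-3510693), a regulatory subunit gene of protein phosphatase 6, was the only region in 7 lists. Its fold enrichment was 8.32 and 6.33 in KO RNase R-, 3.51 in KO RNase R+ replicate 2, 5.96 and 6.73 in WT RNase R-, and 18.4 and 8.98 in WT RNase R+, with no peak in KO RNase R+ replicate 1. WT RNase R+ was thus the highest group there. The 18S-related region (chr6:3200553-3201662) had the highest mean, at 90.6 and 83.6 in KO RNase R-, 97.2 and 83.1 in KO RNase R+, and 41.7 and 55.0 in WT RNase R-, with no peak in WT RNase R+. The KO lists were above the WT lists without overlap, and 80.5% of this region was 18S-related sequence, and the part of reads from the ribosomal RNA genes in its peaks was not tested.

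The direction between KO and WT differed among the other leading regions. The region chr2:3050037-3050527 stood at 33.1 and 21.6 in KO RNase R-, 31.2 and 12.7 in KO RNase R+, and 37.6 and 33.5 in WT RNase R-, so that both WT lists were above the 4 KO lists. The Sfi1 intron region chr11:3184096-3184847 went the other way, at 18.0 and 25.8, 19.2 and 20.9, and 15 and 13.8 in the same order. The region chr16:3116231-3116922, at 23.3 and 19.8, 12.1 and 7.99, and 26.1 and 22.9, overlapped between KO and WT. In chr13:3372886-3373716 and chr18:3004458-3005133 both WT RNase R- lists were again above the 4 KO lists, at 21.1 and 16.4 against 9.02 to 12.9 and at 18.5 and 25.7 against 5.48 to 16.1. The remaining ones were chr11:3196366-3197550, chr11:3190375-3191704 and chr11:3194126-3195344, with mean fold enrichments of 9.74, 7.40 and 7.24, and the 5 regions of the array. No test was run on single regions, since 2 lists against 2 cannot reach p under 0.333.

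**Figure D5:**
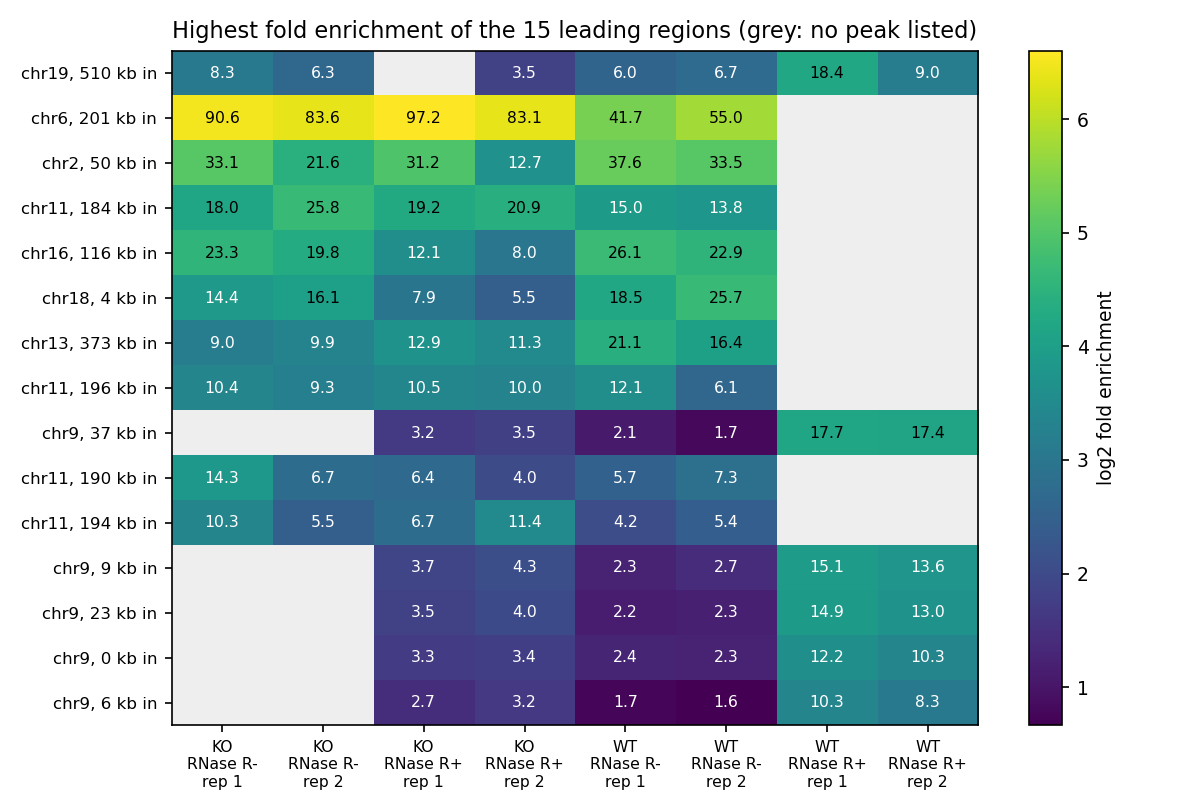
Highest fold enrichment of each of the 15 leading regions (rows, named by chromosome and distance of their start from the assembled start) in each list (columns), with the color giving its log2 and grey marking lists with no peak. The 18S-related region of chromosome 6 stands out at 41.7 to 97.2 in 6 lists, and the 5 chromosome 9 rows are grey in both KO RNase R- columns and highest, at 8.34 to 17.7, in the WT RNase R+ columns.

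Further regions were called in both replicates of a WT group. In WT RNase R- these were chr11:3185697-3186605 in Sfi1, chr18:3005677-3006110, chr6:3192183-3192632, chr11:3119364-3120236, chr16:3349665-3350469, chr9:3258338-3259411, chr17:3608074-3608456, chr18:3790350-3790859 and chr16:3114596-3115541, each also called in a KO list. Another 5 were called in both WT RNase R- lists and in no other list. They were chr14:3545535-3546076 in Gm3005 at 10.8 and 7.39, chr10:3409954-3410827 in Ppp1r14c at 7.44 and 10.1, and 3 regions of chromosome 16, chr16:3126642-3127135 at 7.26 and 7.56, chr16:3339456-3339881 at 6.76 and 6.43, and chr16:3341122-3341425 at 6.45 and 5.91. Ppp1r14c encodes an inhibitor of protein phosphatase 1. In WT RNase R+ the remaining region was chr3:3119648-3120054, at 9.57 and 12.2, which no other list called.

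Of the 208 protein-coding entries of GENCODE M21 that overlap the windows, 96 (46.2%) held a summit in at least 1 list, inside or outside the window, against 43.7% of those elsewhere, and 93 overlapped a member region. Of the 208, 55 (26.4%) held a summit in both KO RNase R- lists, against 25.2% of all 20807 protein-coding genes. WT lists placed a summit in 29 (13.9%) of them, against 7.07% of the protein-coding genes outside the windows. All 9 gene models of the chromosome 9 array, named below, were among these 29 and among the 96, so part of these shares is the array. Of 88 lncRNA entries, 31 (35.2%) held a summit in any list, against 23.2% outside, with a median length of 10.7 kb against 6.74 kb. Of 193 pseudogene entries, 7 (3.63%) did, against 3.09%. Among the protein-coding genes with a member region called in both replicates of a group, 56 in all, the leading 15 included Ppp6r3, Sfi1, Drg1, the 9 gene models Gm10715, Gm10721, Gm10720, Gm10719, Gm10718, Gm10717, Gm17535, Gm10722 and Gm11168 that GENCODE places in the chromosome 9 array, and Smtn and Myadm. Smtn, which encodes the actin-associated smoothelin, had 3 and 4 summits in KO RNase R-, 1 and 1 in KO RNase R+ and 0 in the 4 WT lists, with a highest fold enrichment of 30.1.

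Members were compared with all other peaks of the same list, so that both sides shared depth and genotype, by exact sign-flip tests over the 8 lists with p-values adjusted over 14 tests. A larger share of members was called in the other replicate, by 24.7 percentage points on average (exact p = 0.00781, adjusted p = 0.0182, higher in 8 of 8 lists). Both lists of a group enter this share through the same overlaps, so the 8 differences are not independent. The p-values of this measure, here and below, are therefore too small. Those of the other measures can be too small as well, since the lists share regions. The shares were 63.6% and 52.7% against 54.4% and 44.6% in KO RNase R-, and 44.2% and 63.3% against 15.3% and 28.0% in WT RNase R-. More members lay on an expected level over 3 times the list background, by 26.1 points (adjusted p = 0.0182, exact test, 8 of 8 lists), with 8.05% and 9.27% against 3.8% in both in KO RNase R- and 31.4% and 45.0% against 4.38% and 8.55% in WT RNase R-. Median peak width was higher by 426 bp on average (adjusted p = 0.0182, exact test, 8 of 8 lists), from 3 bp in KO RNase R- replicate 1 to 1930.5 bp in WT RNase R+ replicate 2. GC content within 150 bases of the summit was lower by 4.26 points (mean difference -4.26, adjusted p = 0.0182, exact test, lower in 8 of 8 lists). Summits lay in annotated genes more often, by 15 points (adjusted p = 0.0182, exact test, 8 of 8 lists), while genes covered 48.0% of the window bases and 48.4% of the rest.

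These differences leaned on the array. Without its peaks, the 6 lists with 5 members or more gave 14.4 points for the call in the other replicate, 11.1 points for the expected level, 25.9 bp for width and -1.62 points for GC content, each with p = 0.0312, the smallest that an exact test over 6 lists allows, and an adjusted p of 0.0729. The gene share then differed by 0.556 points (exact test, adjusted p = 0.938). The share of summits in sequence with more than 1 genomic copy was 10.6 points higher among members (exact test, p = 0.0391, adjusted p = 0.0778), higher in 7 of 8 lists and lower in WT RNase R+ replicate 1, at 66.7% against 77.4%. The windows themselves were more repeated, with 67.5% of grid words unique against 84.3% in the rest. Median log2 fold enrichment differed by 0.08 (p = 0.492, exact test, adjusted p = 0.492), above the rest in 4 lists and below in 4. Without the array's peaks the 8 differences ran from 0.01 to 0.19, and the signs below 0 in KO RNase R+ and WT RNase R- were gone.

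Restriction fragment length and purine runs, measures chosen after seeing the data, had close values in members and rest in KO RNase R-. The restriction fragment under a summit had a median of 232 and 235 bp in members and 237 and 243 bp in the rest. In WT RNase R+ it was 1468 and 1635 bp in members and 963 and 981 bp in the rest, and 0 of 9 and 0 of 8 members had a site within 75 bases of the summit, against 22.1% and 18.0% of the rest. Of these members 5 and 5 lay in the array, where sites were few. A purine or pyrimidine run of at least 30 bases lay within 75 bases of 45.2% and 44.1% of KO RNase R- members and of 44.2% and 44.3% of the rest. In WT RNase R- the shares were 29.1% and 20% in members, or 35.7% and 26.7% outside the array, and 32.3% and 30.6% in the rest.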

How the data were processed

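The authors aligned trimmed reads with Bowtie2 to GRCm38, removed duplicates, non-unique alignments and reads with more than 3 mismatches with SAMtools 1.1, and called peaks per replicate with MACS2 at q 0.001. The control library is not given in the sources used here, and the 8 input samples are not analysed here. The deposited lists give each peak's fold enrichment (a ratio) and its −log10 p and −log10 q, and no read total, and the deposited score, an integer that the caller makes from the q, was not used. The summit height and the expected level, both in fragments since the caller was run on read pairs, were computed from the ratio and p. Only whole heights were searched, and a match to the listed −log10 p was found for 100% of chromosome 1 to 19 peaks (relative tolerance 2e-05). This match is a weak check at the highest summits, where neighboring whole heights differ little in relative terms. Peaks were merged on overlap of at least 1 bp. Gene positions are from GENCODE M21, and copies are exact occurrences of 31-base words within 50 bases of the summit, both strands. Group comparisons used exact permutation within strata and the density and feature comparisons exact sign-flip tests over lists (Python 3, NumPy, SciPy), checked on simulated data, with Benjamini-Hochberg adjustment over 14 tests and 0.5 added before log2. The members, lists and tests were chosen with earlier results of these data known. The limits of the chromosome 9 array, the 18S alignment and the cut-site counts were chosen after seeing the data. Named regions were the first 15 by number of lists and mean fold, all called in both replicates of a WT group, and the first 15 protein-coding genes by the same order, of which 1 is not reported here. The 3 highest and 3 lowest chromosomes and the peaks nearest the limit were named too. Fold or q thresholds, windows of 0.5 and 2 Mb, other base counts, left-out lists and chromosomes and a replicate block were tried as alternatives.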

Additional observations from a re-analysis of the deposited data

Results flagged for a closer look

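RNase R went with opposite changes of 1 measure in KO and WT cells, the median log2 fold enrichment of first-megabase peaks minus that of all other peaks in the same list. The KO lists stood at 0.11 and 0.07 before and at -0.21 and -0.30 after the enzyme, a mean change of -0.34. The WT lists stood at -0.11 and -0.07 before and at 0.62 and 0.51 after it, a mean change of 0.65. In KO both lists with RNase R stood below both lists without it, and in WT both stood above. The difference between the genotypes was not tested. It was the only one of 9 measures with this pattern. The WT RNase R+ values rest on 9 and 8 members, of which 5 and 5 lay in the chromosome 9 array. Without the array's peaks the KO lists stood at 0.11 and 0.07 before and at 0.01 and 0.09 after the enzyme. The WT lists then stood at 0.03 and 0.13 before and at 0.11 and 0.19 after it, the last 2 on 4 and 3 members. Lists with and without RNase R then overlapped in each genotype, so neither the opposite changes nor the values below 0 were seen any longer.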

How the results depend on the processing

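The 8 sign-flip tests over lists had 141 alternative values, of which 118 kept their direction and their side of the 0.05 threshold on the adjusted p. The 6 tests between groups cannot pass that threshold (smallest p 0.0556), so their 130 alternatives say nothing of calls, and 127 of them kept the direction. With peaks on an expected level over 3 times the background left out, the density gave 0.59 (log2), the call in the other replicate 9.93 points, width 6.67 bp and GC -1.43 points, none past the threshold, and the RNase R difference of density reversed to -0.18 and the gene share to -1.40 points. The share on a high expected level has no value there. Without chromosome 9 (chosen after seeing the data) the values were 0.71, 14.5 points, 26.2 bp, -1.57 points, 11.4 points for the expected level and 1.47 points for genes, with RNase R reversed to -0.29. Without the array's peaks (also chosen after seeing the data) they were 0.67, 14.4 points, 25.9 bp, -1.62 points, 11.1 points and 0.556 points, with -0.34 for RNase R. For the feature shares only 6 lists were then left, and the unadjusted p of the density stayed at 0.00781. At fold 5 or more the gene share was 8.89 points (no longer called) and the median log2 fold 0.19 (newly called). Without chromosome 11 the gene share was 11.6 points (no longer called), the 0.5 Mb window gave 13.4 points for repeated sequence (newly called), and the 2 Mb window gave -2.84 points for GC (no longer called). Leaving out 1 list in turn gave a range of 8.58 to 13.7 points for repeated sequence, called only without WT RNase R+ replicate 1. It gave 1.06 to 1.30 for density, with adjusted p of 0.0312 to 0.0365. No pairing of the lists by replicate number was seen (correlations of the replicate differences over 19 chromosomes of 0.072, 0.0504, -0.321 and 0.0875). With so few members in some lists these correlations cannot exclude it. With the replicate block the KO to WT values stayed at 1.98, 3.31 and 2.65 (log2), RNase R at -2.35, and relative density at -1.06 and 0.33, the same as with the crossed pairing, and no call was possible in either. Peak lists limit what can be said of WT RNase R+, with 9 and 8 members, and of regions below the calling threshold, whose height is unknown.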
